A study of Homo sapiens with 6 samples.

Results

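The genes of the BRCA complex and of DNA end resection comprised 10 genes chosen by symbol: BRCA1, BRCA2, BARD1, PALB2, BRIP1, RBBP8, EXO1, BLM, DNA2 and MRE11. Of these, 8 had a feature named in the platform annotation used here, among 22411 genes with 1 symbol, and each of the 8 had a single such feature. BRCA2 and RBBP8 were not analysed here. The cells were H460, a human large cell lung carcinoma line of the non-small cell class, either left without radiation (control, 3 arrays) or given 7 Gy (irradiated, 3 arrays). Total RNA was measured on the GeneChip Human Transcriptome Array 2.0, and a value below is the log2 signal of 1 transcript cluster (the probe group of 1 locus) on 1 array. Both groups came from the same single line, the titles call the replicates biological, and none of the sources used here gives the time from irradiation to RNA extraction.

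A double-strand break can be repaired by homologous recombination once its ends have been resected, that is, once the 5′ strands have been cut back to leave single-stranded 3′ tails. MRE11, in a complex with RAD50 and NBN, starts resection together with RBBP8 (CtIP), and EXO1 and DNA2 extend it, DNA2 working with the helicase BLM. BRCA1 and BARD1 form a ubiquitin ligase that favours resection, and PALB2 links BRCA1 to BRCA2, which acts on the resected tails. These genes act mainly in S and G2 phase, when a sister chromatid is present as a template.

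After 7 Gy, 7 of the 8 measured genes fell and 1, PALB2, did not pass the test (limma, Benjamini-Hochberg adjusted p under 0.05 over 67528 transcript clusters). For comparison, 2.8% of all transcript clusters were called lower, and 8.12% of the 14808 genes with 1 symbol and a mean log2 signal of at least 5. The long-range nucleases EXO1 and DNA2 had the largest decreases of the 8, close to a halving of the linear signal, and the other 5 genes that fell had log2 differences between -0.49 and -0.29. The median log2 difference (irradiated minus control) of the 8 genes was -0.47, against 0.03 over all transcript clusters and 0.01 over genes with 1 symbol. In 8 of 8 genes every irradiated array lay below every control array, which was the case for 9.41% of transcript clusters. In RNA from bulk cultures, fewer cells in the phases that express a gene and less of its RNA per cell cannot be told apart.

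**Figure D1:**
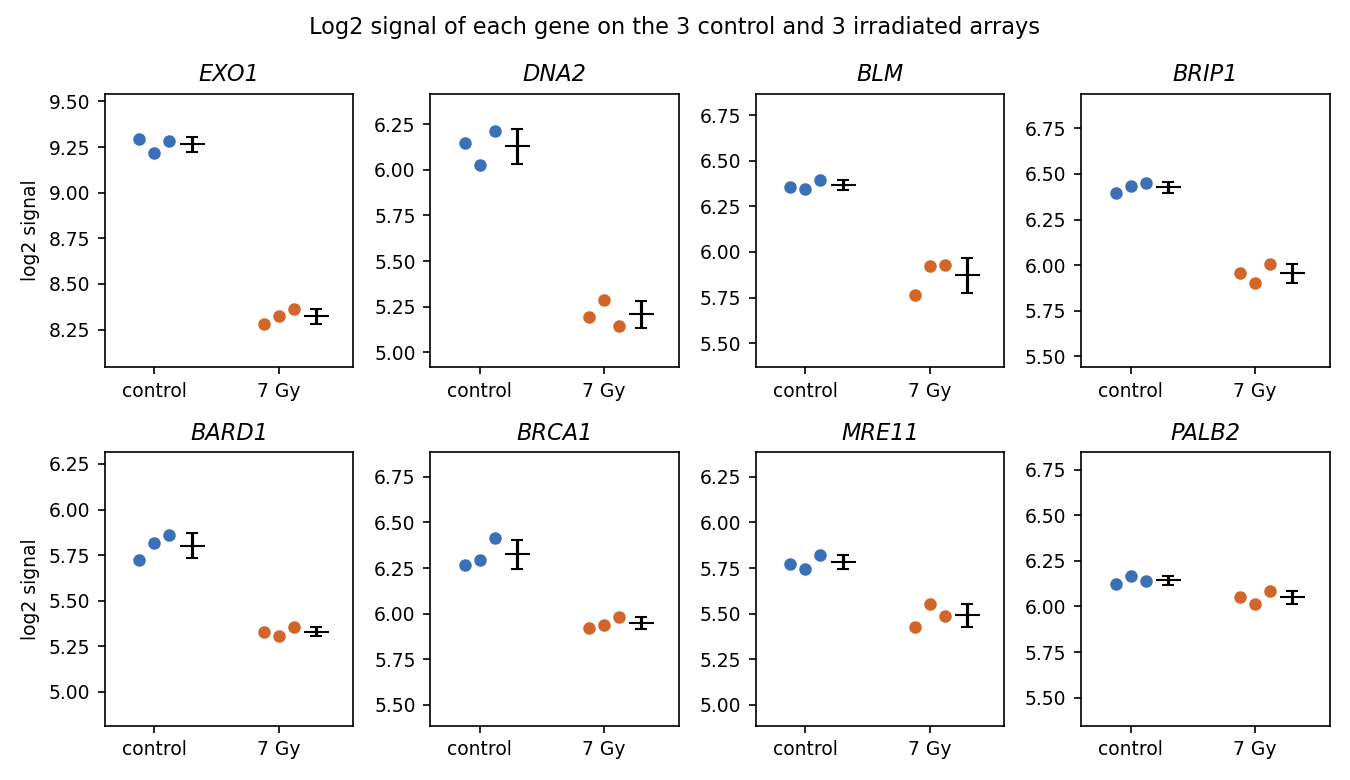
Log2 signal (vertical axis, each panel spanning the same range) of the 8 measured genes on the 3 control arrays (blue) and the 3 arrays of cells given 7 Gy (orange), with the mean and SD of each group in black. In every panel the orange points lie below the blue points, with the widest gap for EXO1 (0.86) and the narrowest for PALB2 (0.039).

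The nucleases that extend resection changed the most. EXO1, a 5′ to 3′ exonuclease, had log2 signals of 9.29, 9.22 and 9.28 on the control arrays and 8.28, 8.33 and 8.36 on the irradiated arrays. The groups were separated by 0.86, many times the spread within either of them. EXO1 fell by 0.94 on the log2 scale (SE 0.05, 95% interval -1.05 to -0.83, limma adjusted p = 2.51e-04), which is 1.92-fold, and 25 of the 22411 genes had a more negative difference. DNA2, which combines a helicase with a nuclease and also trims flaps on Okazaki fragments, had log2 signals of 6.15, 6.02 and 6.21 in the controls and 5.19, 5.29 and 5.14 after irradiation. Its replicates were more scattered than those of EXO1, and the groups still lay 0.74 apart. DNA2 fell by 0.92 (SE 0.07, 95% interval -1.07 to -0.77, limma adjusted p = 6.82e-04), or 1.89-fold, with 27 genes more negative. The intervals of EXO1 and DNA2 overlapped almost entirely, and both lay below those of the other 6 genes, whose lowest bound was -0.63 (BLM). That difference between genes was not itself tested.

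BLM, the RecQ helicase that unwinds DNA ahead of the DNA2 nuclease and also dissolves double Holliday junctions, had log2 signals of 6.36, 6.34 and 6.40 in the controls and 5.76, 5.92 and 5.93 after irradiation. The first irradiated array was the lowest, and all 3 were below the controls. BLM fell by 0.49 (SE 0.06, 95% interval -0.63 to -0.36, limma adjusted p = 0.00452), 1.41-fold. MRE11, the nuclease that makes the first cuts, had log2 signals of 5.77, 5.75 and 5.82 in the controls and 5.43, 5.55 and 5.49 after irradiation. The gap between its groups was 0.19, the smallest among the 7 genes that passed. MRE11 fell by 0.29 (SE 0.05, 95% interval -0.41 to -0.17, limma adjusted p = 0.022), 1.22-fold. Without 1 array, MRE11 passed only when irradiated 2 was left out (limma adjusted p from 0.062 to 0.0896 in the 5 other fits), and it did not pass in the unmoderated test (0.0606) or with the replicate number as a block (0.088), while its difference stayed between -0.32 and -0.26 in the leave-one-out fits.

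Within the BRCA1 complex, both subunits of the ubiquitin ligase fell by similar amounts. BRCA1 had log2 signals of 6.26, 6.30 and 6.41 in the controls and 5.92, 5.94 and 5.98 after irradiation. The third control array was the highest, and without it the difference was -0.33. BRCA1 fell by 0.38 (SE 0.05, 95% interval -0.50 to -0.25, limma adjusted p = 0.00987), 1.30-fold. BARD1, its obligate RING-domain partner, had log2 signals of 5.73, 5.82 and 5.86 in the controls and 5.33, 5.31 and 5.35 after irradiation. The irradiated arrays were within 0.05 of each other and well below the lowest control. BARD1 fell by 0.47 (SE 0.05, 95% interval -0.59 to -0.35, limma adjusted p = 0.00334), 1.39-fold, and its interval overlapped that of BRCA1.

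BRIP1, the helicase that binds the BRCT repeats of BRCA1 and is also a Fanconi anemia gene (FANCJ), had log2 signals of 6.39, 6.43 and 6.45 in the controls and 5.96, 5.90 and 6.004 after irradiation. Both groups were tight and did not overlap. BRIP1 fell by 0.47 (SE 0.05, 95% interval -0.58 to -0.36, limma adjusted p = 0.00248), 1.39-fold. PALB2, the scaffold between BRCA1 and BRCA2, had log2 signals of 6.12, 6.17 and 6.14 in the controls and 6.05, 6.02 and 6.08 after irradiation. Its irradiated arrays were all lower, by a gap of 0.039 that is about the size of the spread within each group. The difference was -0.09 (SE 0.04, 95% interval -0.20 to 0.0095, limma adjusted p = 0.318) and did not pass, and the interval lay above those of EXO1, DNA2, BLM, BRIP1, BARD1 and BRCA1 and overlapped that of MRE11. With the exception of MRE11, the genes that fell kept their calls in each of the 6 fits without 1 array, with limma adjusted p up to 0.0419 for BRCA1.

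**Figure D2:**
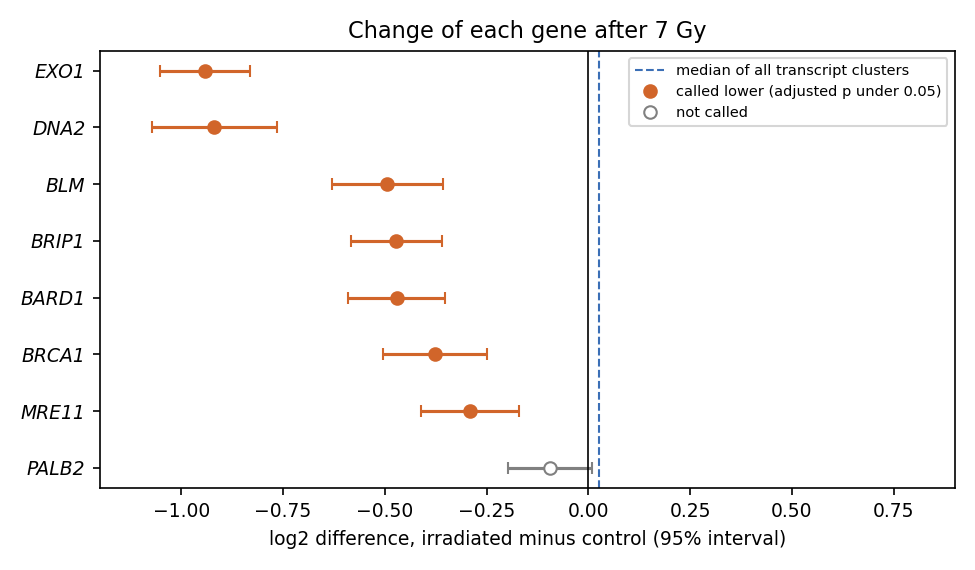
Log2 difference (irradiated minus control, horizontal axis) of the 8 genes with 95% intervals from the limma fit, filled where the adjusted p was under 0.05 and open where it was not. EXO1 (-0.94) and DNA2 (-0.92) stand to the left, 5 genes lie between -0.49 and -0.29, and the interval of PALB2 reaches past 0. The dashed line is the median of all transcript clusters (0.03).

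Promoter windows of the listed genes, called or not and measured or not, were searched for letters linked to cell cycle transcription. The windows are from RefSeq (GRCh38.p14), 300 bases long, from 250 before to 50 after an annotated start. They covered 9 of the 10 genes in 12 windows, since BRCA1, RBBP8 and EXO1 have 2 each. DNA2 had no window in the set used and is named only. The motifs were the E2F core in its 4 forms (TTCCCGC, the variant TTGGCGC, the variant TTCGCGC and the variant TTGCCGC), the CHR element (TTTGAA) and the NF-Y box (CCAAT), each on both strands. E2F factors drive S-phase genes, and NF-Y and CHR letters are common before genes of G2 and mitosis. The windows of EXO1, BLM, BRIP1, BRCA1 and PALB2 are shown because they run from the largest measured change through the middle of the range to the one gene that was not called. Capitals mark the searched letters on either strand, so that GCGGGAA is TTCCCGC and ATTGG is CCAAT on the other strand.
EXO1 (chr1:241847954-241848253, plus strand): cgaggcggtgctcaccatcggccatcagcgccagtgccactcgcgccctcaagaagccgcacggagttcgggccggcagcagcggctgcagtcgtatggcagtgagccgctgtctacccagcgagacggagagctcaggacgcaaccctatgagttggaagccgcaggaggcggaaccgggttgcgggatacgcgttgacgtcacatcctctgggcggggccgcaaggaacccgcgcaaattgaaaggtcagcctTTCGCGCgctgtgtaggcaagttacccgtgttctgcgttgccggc
BLM (chr15:90717096-90717395, plus strand): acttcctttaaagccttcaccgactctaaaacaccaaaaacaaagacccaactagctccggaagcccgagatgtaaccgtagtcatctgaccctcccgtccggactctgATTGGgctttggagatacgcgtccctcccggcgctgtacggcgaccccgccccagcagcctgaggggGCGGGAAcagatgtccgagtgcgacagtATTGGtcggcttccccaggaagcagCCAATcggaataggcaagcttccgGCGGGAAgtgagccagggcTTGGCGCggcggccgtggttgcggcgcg
BRIP1 (chr17:61863479-61863778, minus strand): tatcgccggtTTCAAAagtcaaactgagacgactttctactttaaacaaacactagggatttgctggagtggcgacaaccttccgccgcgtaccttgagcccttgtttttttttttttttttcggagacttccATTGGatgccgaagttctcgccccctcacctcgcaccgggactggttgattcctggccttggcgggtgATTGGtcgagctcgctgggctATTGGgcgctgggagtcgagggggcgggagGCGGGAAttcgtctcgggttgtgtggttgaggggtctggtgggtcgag
BRCA1 (chr17:43125315-43125614, minus strand): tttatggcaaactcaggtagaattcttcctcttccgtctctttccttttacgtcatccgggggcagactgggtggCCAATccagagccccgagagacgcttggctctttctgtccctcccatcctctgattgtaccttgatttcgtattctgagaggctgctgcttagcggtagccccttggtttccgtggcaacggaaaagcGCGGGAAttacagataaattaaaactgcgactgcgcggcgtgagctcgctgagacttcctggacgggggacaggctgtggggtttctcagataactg
PALB2 (chr16:23641261-23641560, minus strand): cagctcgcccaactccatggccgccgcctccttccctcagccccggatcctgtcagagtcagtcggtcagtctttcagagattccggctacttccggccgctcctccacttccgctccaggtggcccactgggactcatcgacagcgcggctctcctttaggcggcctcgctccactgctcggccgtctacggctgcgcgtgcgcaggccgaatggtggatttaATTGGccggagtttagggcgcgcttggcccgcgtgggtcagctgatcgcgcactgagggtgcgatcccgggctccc

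An E2F core was found in windows of EXO1, BLM, BRIP1, BARD1 and BRCA1, that is, in 5 of the 7 measured genes with a window. In EXO1 the letters TTCGCGC lay at bases 6 to 12 after the start. BLM held 3 E2F cores, at -74 to -68, 4 to 10 and 23 to 29. In BRIP1 and BARD1 the core lay just after the start, at 3 to 9 and at 5 to 11, and in BRCA1 it lay before it, at -47 to -41. The windows of MRE11 and PALB2, which had the smallest differences of the 8 genes, held no E2F core of these letters and held 2 and 1 NF-Y boxes. The other windows of EXO1 and BRCA1, not printed here, held no E2F core either, and DNA2 had no window. Whether the core goes with the size of the change was not tested. Over all 35116 windows in the table, 13% held an E2F core, against 5 of the 12 windows of the listed genes. For the NF-Y box the figures were 34.6% and 5 of 12, and for the CHR letters 15.2% and 1 of 12, in BRIP1 at -240 to -235. The E2F letters are rich in G and C, as were these windows (51.7% to 73.7% G and C), and a match is a description of the letters, not of a bound site.

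**Figure D3:**
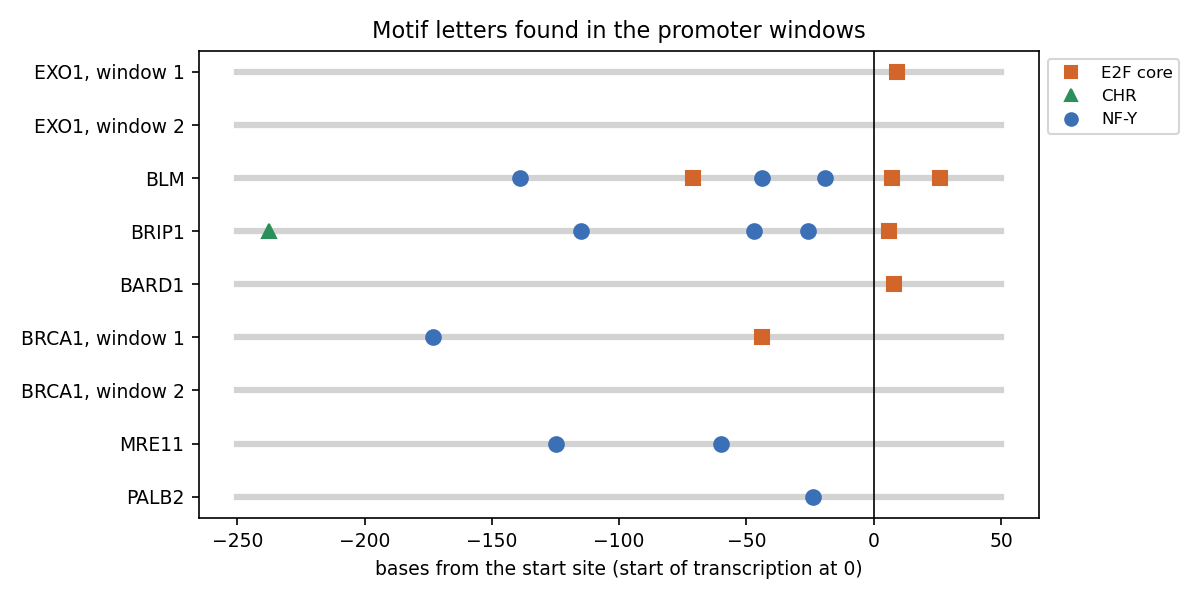
Positions of the searched letters in the promoter windows of the measured genes, as bases from the start site (horizontal axis), with genes ordered from the largest decrease at the top. Squares are E2F cores, circles NF-Y boxes and the triangle a CHR element. BLM holds 3 squares, and MRE11, PALB2, window 2 of EXO1 and window 2 of BRCA1 hold none. DNA2 had no window in the set used.

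For several of these genes, an annotated start lies within 1000 bases of the start of a gene on the other strand. None of the few measured neighbours was called lower, where 2.8% of all transcript clusters were, so that count is no result about the neighbours. ZAR1L, a neighbour 145 bases from BRCA2, which was not measured, had a difference of 0.09 and did not pass (limma adjusted p = 0.315). NBR1, an autophagy receptor gene that starts 82 bases from the upstream one of 2 BRCA1 starts, had log2 signals of 6.64, 6.71 and 6.73 in the controls and 7.05, 7.03 and 7.05 after irradiation. Its groups did not overlap, and it moved in the direction opposite to BRCA1. NBR1 rose by 0.35 (SE 0.05, 95% interval 0.24 to 0.46, limma adjusted p = 0.00657). The BRCA1 start near NBR1 lies in the window at chr17:43170278-43170577, not in the distant one printed above (chr17:43125315-43125614). Which start the BRCA1 signal comes from was not tested, so a start region shared by the measured BRCA1 and NBR1 transcripts is not shown. NBR2, a noncoding gene that starts 193 bases from a BRCA1 start, had a difference of 0.13 and did not pass (95% interval 0.03 to 0.24, limma adjusted p = 0.158). DCTN5, a dynactin subunit gene 156 bases from PALB2, had a difference of 0.12 and did not pass (limma adjusted p = 0.229). ANKRD49, 140 bases from MRE11, had a difference of -0.21 with scattered replicates and did not pass (95% interval -0.50 to 0.07, limma adjusted p = 0.419). The intervals of BRCA1 and NBR1 lay on opposite sides of 0, while that of ANKRD49 included the whole interval of MRE11. The differences between neighbours were not tested as such.

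**Figure D4:**
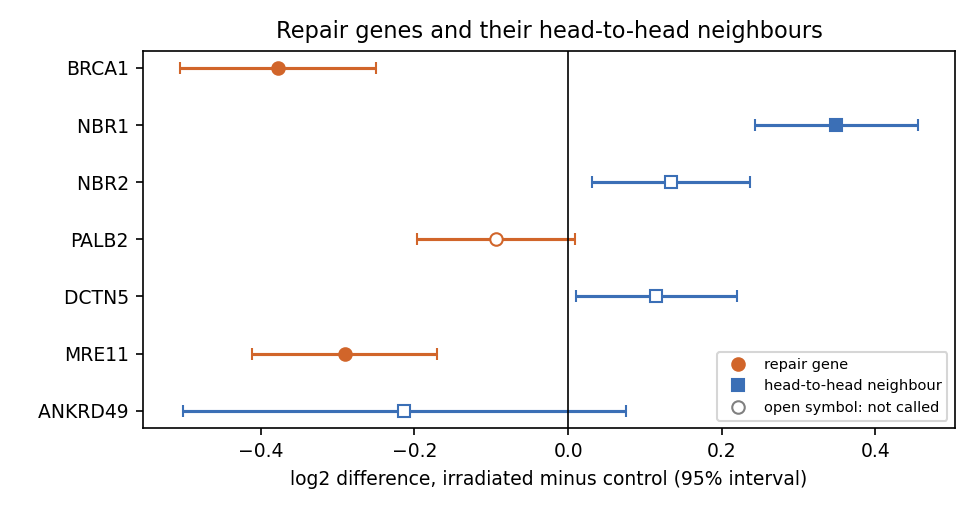
Log2 difference (irradiated minus control, horizontal axis) with 95% intervals for BRCA1, PALB2 and MRE11 (orange circles) and the genes that start within 1000 bases on the other strand (blue squares), filled where called. BRCA1 (-0.38) and NBR1 (0.35) lie on opposite sides of 0. NBR1 starts near the upstream one of 2 BRCA1 starts, and NBR2 (0.13), the other BRCA1 neighbour, was not called.

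Genes listed here as resection partners, together with the RPA genes, were lower in part. For this and the lists below, the comparison is the 8.12% of genes (1 symbol, mean log2 signal of at least 5) called lower. Of 15 resection partners and RPA genes, 6 fell and 9 did not pass, with a median log2 difference of -0.21. RPA1, the large subunit of the RPA complex that coats resected tails, fell by 0.56, RPA2 by 0.39 and the helicase gene RECQL by 0.40 on the log2 scale. The smallest RPA subunit gene, RPA3, had a difference of -0.07 and did not pass. In the MRE11 complex, NBN fell by 0.23 while RAD50 had a difference of -0.03 and did not pass. Among the partners of BLM, RMI1 fell by 0.36, and TOP3A (-0.07) and RMI2 (-0.06) did not pass. The sixth was WRN, a RecQ helicase gene, which fell by 0.27. The count was 3 or 4 in the fits without 1 array, since NBN and WRN were called in none of them and RPA2 lost its call when control 1 was left out (limma adjusted p up to 0.102, 0.151 and 0.0556). RPA3, RAD50, RMI1, TOP3A, RMI2, NBN and WRN were named after their values were seen.

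The BRCA1-A complex holds a further pool of BRCA1 at ubiquitin marks. It and other BRCA1 or BRCA2 partners had a median of -0.01. Among these 10 genes 1 fell, which is near the 8.12% share of the comparison genes. That gene was BRCC3, the deubiquitinase subunit, which fell by 0.42 (SE 0.05, limma adjusted p = 0.00469). Of 8 resection antagonists, 3 fell and 5 did not pass, with a median of -0.12. RIF1, which acts with TP53BP1 to protect ends, fell by 0.52, the shieldin gene SHLD2 by 0.27 and MAD2L2, also a shieldin subunit, by 0.23. On leaving out any 1 array RIF1 was the one antagonist still called (limma adjusted p up to 0.0854 for SHLD2 and 0.136 for MAD2L2). TP53BP1, named after its value was seen, had a difference of 0.12 and did not pass (limma adjusted p = 0.184).

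The later repair steps and break signalling were covered by 3 lists, set beside the same share of 8.12% called lower. Of 18 genes of strand exchange and its preparation, 6 fell and 12 did not pass, with a median of -0.09. RAD51AP1, which stimulates strand pairing, fell by 0.67, XRCC2, which also acts in strand exchange, by 0.49 and the translocase gene RAD54L by 0.46, and these 3 kept their calls in each of the 6 fits without 1 array, in which 3 or 4 of the list were called. Of 8 genes of crossover and branch resolution, limma called 0, and so did its trended and unmoderated forms. Unadjusted, 2 of the 8 had a p under 0.05, and the median was -0.04. FANCM, a translocase gene named after its value was seen, had a difference of -0.34 (limma adjusted p = 0.0975) and was called lower when control 2 was left out and when features with 1 symbol alone were tested. The brightest members of that list, the nuclease subunit genes EME2 and ERCC1, had differences of -0.03 and 0.06. Of 10 break signalling genes, 6 fell and 4 did not pass, with a median of -0.26. CLSPN, the adaptor through which ATR activates CHEK1, fell by 1.04, H2AX, the histone variant phosphorylated around breaks, by 0.83 and the ubiquitin ligase gene RNF168 by 0.30. In the fits without 1 array, 2 or 3 of that list were called, with CLSPN and H2AX among them each time and RNF168 kept only without control 1 (limma adjusted p up to 0.0953).

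**Figure D5:**
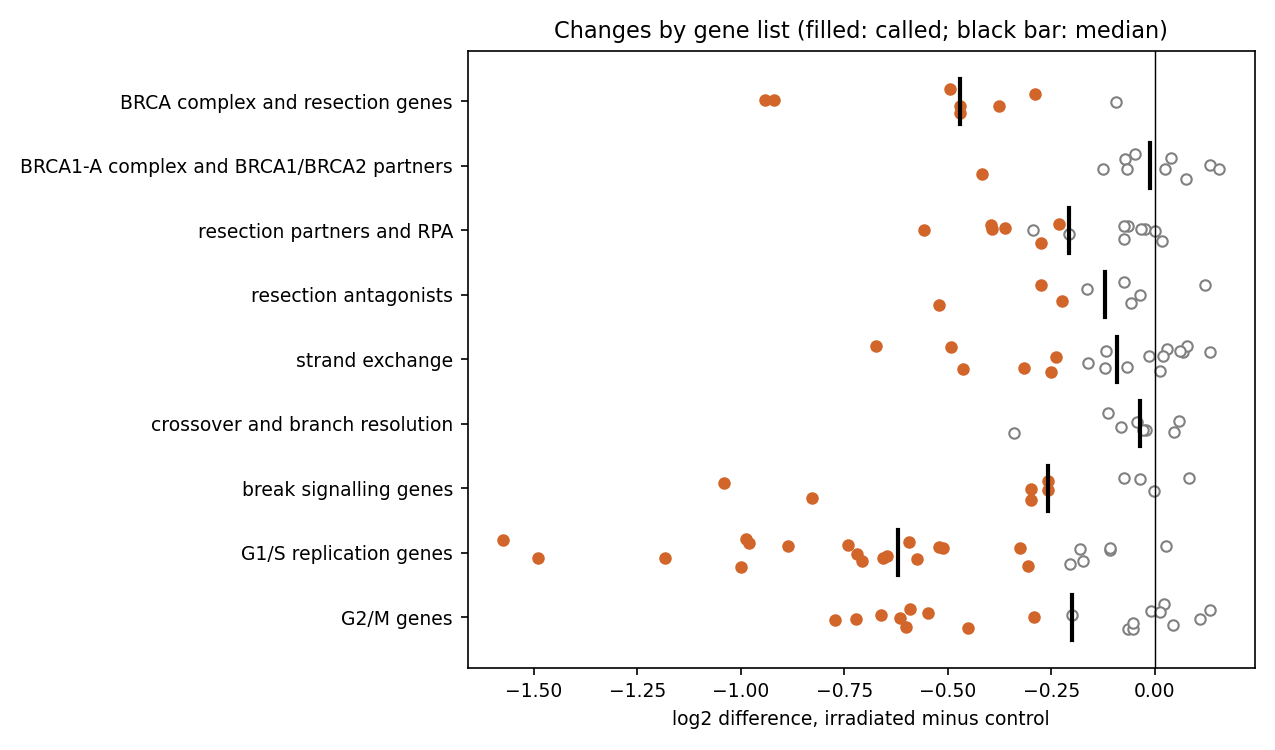
Log2 difference (irradiated minus control, horizontal axis) of every measured gene in 9 lists, filled where called and open where not, with a black bar at the median of each list. The BRCA complex and resection genes have a median of -0.47, between that of the G1/S replication genes (-0.62) and those of the other repair lists (-0.26 to -0.01).

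Most G1/S replication genes and a part of the G2/M genes fell with these genes. The part of cell cycle genes in the result was not tested. Of 24 G1/S replication genes, 18 fell and 6 did not pass, with a median of -0.62. RRM2, a subunit of ribonucleotide reductase, fell by 1.57, the helicase subunit gene MCM6 by 1.49 and the cyclin gene CCNE2 by 1.18. Of 19 G2/M genes, 9 fell and 10 did not pass, with a median of -0.20. A negative difference was seen in 14 of the 19, and the highest difference was 0.13. The kinetochore motor gene CENPE fell by 0.77, KIF11 by 0.72 and KIF20A by 0.66. The genes most like the 3 members with the largest changes were taken by the smallest root mean square distance between centred log2 values over the 6 arrays, with no account of function. They were LMNB1 (distance 0.026), H2AZ1 (0.027) and BRI3BP (0.029) for EXO1, MCM10 (0.049), HELLS (0.049) and H1-4 (0.050) for DNA2, and CENPV (0.016), MSH6 (0.016) and PUS7 (0.016) for BLM.

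Over the whole set, array medians lay between 4.65 and 4.70 and Pearson correlations of the arrays were 0.994 to 0.995 between groups and 0.996 to 0.998 within them. As a check of the labels, 18 of 18 measured p53 targets rose, with a median of 0.90, where 2.25% of transcript clusters were called higher. That list was also chosen with earlier results of these data known, so the check is not independent of them. The keratin genes KRT8 (10.86 in the controls) and KRT19 (10.15) were bright. EPCAM (4.04), also an epithelial marker, was close to the median of the 23 background control features (3.74). These 23 features ranged from 2.17 to 11.67, so their median is no sharp floor. Among 5 fibroblast markers, DCN (2.86) and LUM (3.29) lay below that median in the controls and COL1A2 (5.36), PDGFRB (5.91) and COL1A1 (6.47) above it. Among 5 blood markers, PTPRC (2.86) and LYZ (3.21) lay below it and CD3E (5.08), CD14 (6.18) and CD68 (8.92) above it. Of 22 markers of epithelial, lung, fibroblast, blood and endothelial cells limma called 0. Before adjustment 5 had a p under 0.05. The unmoderated test called 0, the intensity trend and quantile normalization each called 1 (CD68, higher), and adjustment over fewer features (mean signal of at least 5, or 1 symbol only) called 3, with CD68 higher and CD14 and KRT18 lower. The log2 of the summed linear signal of the 5 epithelial markers was slightly higher after irradiation (12.0143 to 12.0277, against 12.0035 to 12.0140). For the 5 blood markers it was also higher (9.40 to 9.51, against 9.15 to 9.30). That sum is mostly CD68, a lysosomal gene, which had a difference of 0.28 and did not pass (limma adjusted p = 0.0678), and the part of these markers in the results was not tested.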

How the data were processed

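The deposited table held 1 log2 signal per feature and array for 70523 features. Per the labels, the values are an RMA gene-level signal, whereas the submitters' processing notes name MAS5 with no version, so the summary method is not settled. The values were used as deposited. Arrays have no read depth, and their number (3 a group) limits the precision. Of the features, 67528 were transcript clusters and were tested. A single platform symbol was given for 23781 of them, brought up to date with RefSeq gene records (GRCh38.p14). The brightest feature stood for a gene. Groups were compared with limma 3.58.1 in R 4.3.3 (lmFit, eBayes). Tests were two-sided, p-values were adjusted by Benjamini-Hochberg over all 67528, and the code was tested on simulated data. Intervals are 95% and come from the moderated fit. Lists are described by counts and medians, without a list test. The genes and lists were chosen with earlier results of these data known. From each list the text names up to 3 called genes, taken by absolute change, or the 2 brightest where limma called 0. It also names cell type markers, head-to-head neighbours and genes of like pattern, and other names are marked. Alternatives were 2 normalizations, 2 variance models, a filter on dim features, 2 other feature sets, gene means, a replicate block and leaving out each array.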

Additional observations from a re-analysis of the deposited data

How the results depend on the processing

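Under 15 alternatives, the 8 genes kept negative differences. The number called lower was 7 or 6, with MRE11 the gene lost, and the number called higher was 0 throughout. The median difference ran from -0.49 to -0.45. The 8 named genes had 1 feature each, so gene means changed only the adjustment. The number of transcript clusters called was 3411, and between 1559 and 2379 without 1 array, each a fit with fewer samples. Same-numbered control and irradiated arrays showed no shared deviation from their group means (correlations -0.011, -0.073 and -0.039). A lack of shared deviation cannot show that same-numbered arrays were handled separately, so whether the numbers pair the arrays was not settled. With the replicate number as a block, 1598 were called and 6 of the 8 genes. Whether dim features lie above background was not settled, and the difference of a dim gene may understate its change.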
